A study of Homo sapiens with 4 samples.

Results

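The organic ion and drug transporters examined here are the SLC22, SLCO and SLC47 carriers and the ABCB, ABCC and ABCG pumps. Members were taken by gene symbol from the RNA-seq tables, which gave 63 of the 58243 genes listed. The set holds 23 SLC22, 12 SLCO, 2 SLC47, 9 ABCB, 12 ABCC and 5 ABCG genes, and 60 of the 63 are protein-coding in the annotation used for the peaks. The tables carry a gene symbol in either of 2 fields. Transcripts under the second field were all at 0, while the first field also holds 3 members listed at 0 in both libraries. The choice by the first field alone finds 43 members in replicate 1 and 39 in replicate 2. Both fields were therefore used, since the shorter choice depends on the reads.

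HK2 is an immortalized line of human renal proximal tubular cells. All libraries analysed here came from HK2 cells treated with 50 μM FG-4592 (roxadustat), an inhibitor of the prolyl hydroxylases that mark HIFα for degradation, and the study's methods give 6 h for the treatment. RNA-seq was done in 2 libraries and HIF1α ChIP-seq in 2 libraries, and untreated cells were not analysed here, so every value is a level under FG-4592 and none is a response to it. The labels do not say whether replicates came from separate cultures, so the spread between them may be technical. The RNA-seq tables hold 4442 and 4202 Mb of coverage, and the peak lists hold 1689 and 16953 peaks in replicates 1 and 2, given as positions with no score, so that their depth is unknown.

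Proximal tubule cells clear drugs, toxins and metabolites from blood into urine in a pair of steps. Carriers of the basolateral membrane, mainly of the SLC22 family, take organic anions and cations up from blood, and carriers and ATP-driven pumps of the apical membrane pass them into the tubule lumen or reclaim useful solutes. Other members of the same families serve liver, brain or the membranes of mitochondria and lysosomes.

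Most of the basolateral uptake step was at or near 0 in these libraries. *SLC22A6* and *SLC22A8*, the main kidney carriers for organic anion drugs, and *SLC22A7*, a related anion carrier, were listed at 0 in both libraries. Levels are given as FPKM, a count of fragments per length of transcript and per depth of library, added up over all transcripts of a gene. *SLC22A2*, the principal organic cation carrier of human kidney, was at 0.0209 in replicate 1 and was listed at 0 in replicate 2. Values are given in this order below, replicate 1 first. *SLC22A3*, a cation carrier of wide distribution, had 0.264 and 0.517. *SLCO4C1*, a kidney carrier of digoxin and thyroid hormone, was the most abundant of the 6 genes, at 0.617 and 0.871. None of the 6 reached a mean FPKM of 1, and together they summed to 0.902 and 1.39. In bulk RNA, fewer cells with a transcript and less of it in each cell cannot be told apart.

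The apical step was split between genes at a moderate level and genes near 0. *ABCB1*, the P-glycoprotein that expels many drugs, had 11.7 and 10.0 FPKM (10.8 ± 1.18, SD, n = 2). *ABCC4*, a pump for organic anions and cyclic nucleotides, had 7.92 and 8.33 (8.13 ± 0.288). *SLC22A5*, the carnitine carrier, had 2.32 and 2.34, and *SLC22A4*, its neighbour, which carries ergothioneine, had 1.91 and 2.20. These 4 were the members of the apical list of 11 with a mean of at least 1, and the levels of *SLC22A5* and *SLC22A4* did not overlap between the libraries. The urate carriers *SLC22A11* and *SLC22A12* and the cation exporter *SLC47A1* were listed at 0 in both libraries. The related exporter *SLC47A2* had 0.0477 and 0.0373. *ABCG2*, a pump for urate and drugs, had 0.214 and 0.255, and *ABCC2*, which expels conjugated anions, had 0.177 and 0.260. *SLC22A13* was listed at 0 in replicate 1 and had 0.0225 in replicate 2.

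**Figure D1:**
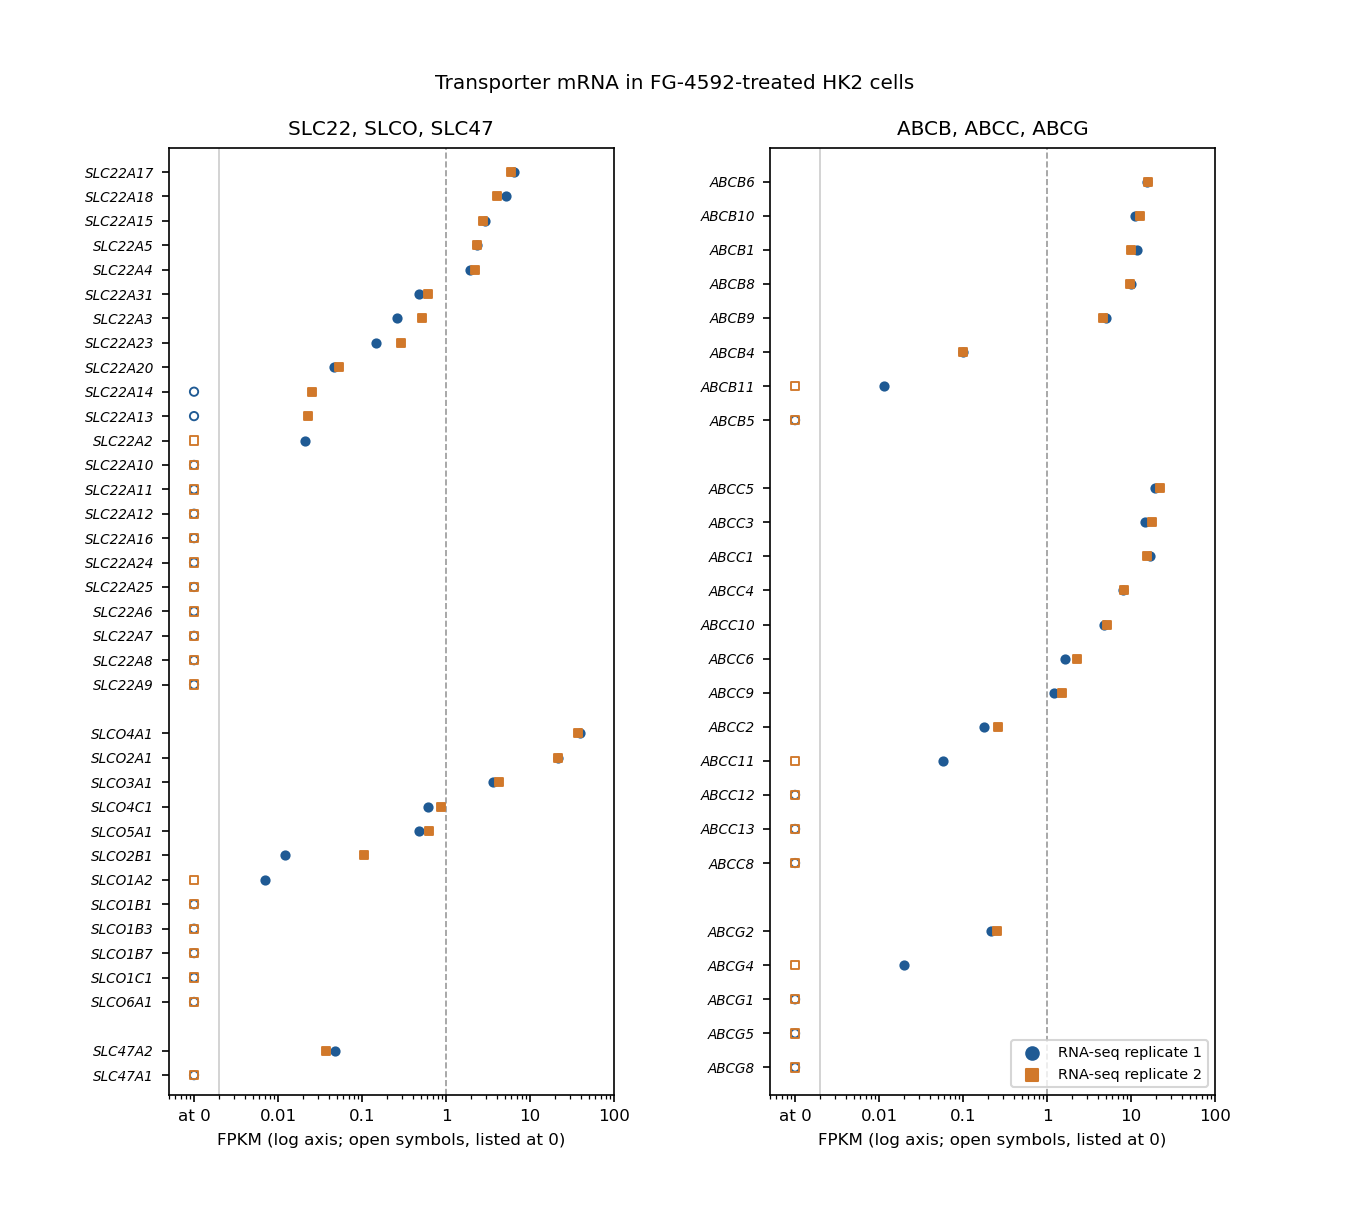
FPKM of single members in RNA-seq replicate 1 (circles) and replicate 2 (squares) on a log axis, with open symbols at the left for values listed at 0 and a dashed line at an FPKM of 1. *SLCO4A1* is the highest at 39.2 and 37.7, and 23 members have open symbols in both libraries.

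Across all members, 21 of 63 (33.3%) reached a mean level of 1 FPKM, against 59.7% of protein-coding genes and 23.1% of all 58243 genes. The libraries listed 23 members (36.5%) at 0 in both, against 19.4% of protein-coding genes and 51.5% of all genes. The remaining 19 lay between. The families differed in these counts. Among the ABC pumps, 13 of 26 (50%) reached a mean of 1, and among the SLC22 and SLCO carriers, 8 of 35 (22.9%). By family the counts were 6 of 9 ABCB, 7 of 12 ABCC, 3 of 12 SLCO and 5 of 23 SLC22 genes, and none of the 5 ABCG and 2 SLC47 genes. In other protein-coding SLC genes, outside the members, 192 of 346 (55.5%) reached a mean of 1, and in other protein-coding ABC genes 12 of 20 (60%).

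**Figure D2:**
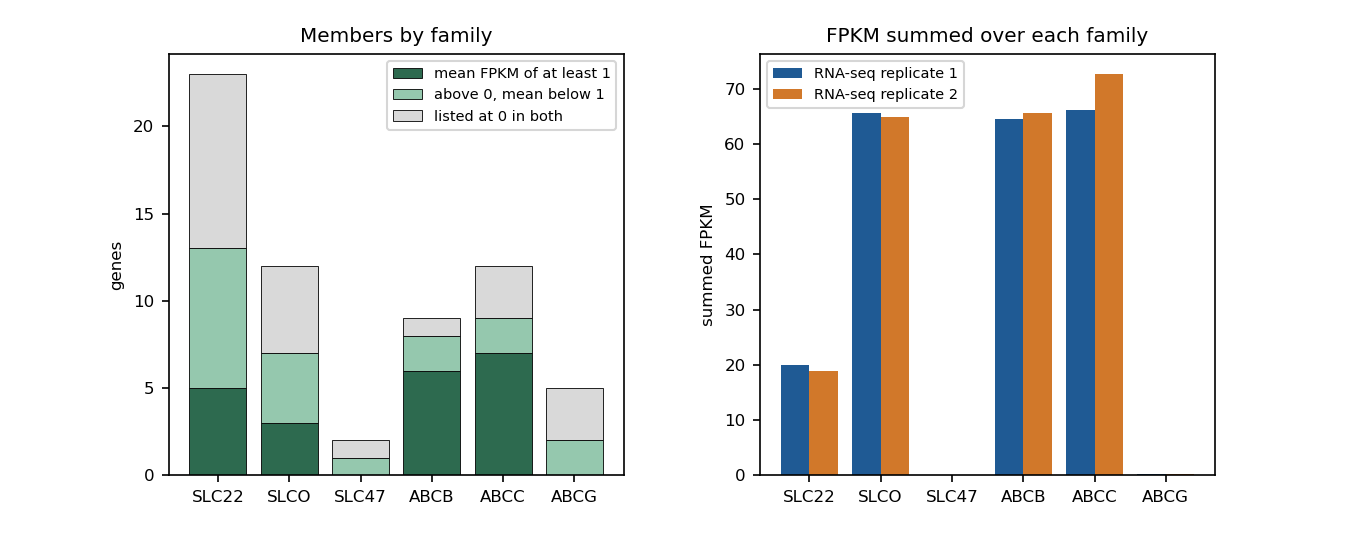
Left, the number of members in each family with a mean FPKM of at least 1, above 0 but below 1, or listed at 0 in both libraries. Right, FPKM summed over each family in each library, where ABCC reaches 66.2 and 72.7 while SLC47 stays at 0.0477 and 0.0373.

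Summed over the members, FPKM was 216.6 in replicate 1 and 222.3 in replicate 2. The 5 genes with the highest means, *SLCO4A1*, *SLCO2A1*, *ABCC5*, *ABCC3* and *ABCC1*, made up 51.4% of the sum in replicate 1 and 51.3% in replicate 2. The next by mean, *ABCB6*, stood above *ABCC3* in replicate 1 and above *ABCC1* in replicate 2, so the order of these 3 is not settled. The first 5 also depend on the transcripts counted. With only the largest transcript of each gene, the mean was 5.77 for *ABCC5* and 4.48 for *ABCC3*, below the 11.5 of *ABCB10*. The 17 basolateral and apical kidney carriers together made up 11.4% of the mean sum.

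The organic anion polypeptides outside the liver and kidney lists held the highest level summed over all transcripts. *SLCO4A1*, which carries thyroid hormones, had 39.2 and 37.7 FPKM (38.4 ± 1.07, SD, n = 2) and ranked 1641 among all genes. *SLCO2A1*, the prostaglandin carrier, had 21.7 and 21.3 (21.5 ± 0.279). The order of these carriers depends on the transcripts counted: with only the largest transcript of each gene the mean was 18.26 for *SLCO4A1* and 18.65 for *SLCO2A1*, and with only protein-coding transcripts it was 13.4 and 19.0. *SLCO3A1* had 3.67 and 4.23, while *SLCO5A1* had 0.471 and 0.625 and *SLCO2B1* 0.0121 and 0.106. *SLCO6A1*, known mainly from testis, was listed at 0.

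Of the ABCC multidrug resistance proteins outside the kidney and liver lists, 4 passed a mean of 1, while *ABCC11* had 0.0574 in replicate 1 and was listed at 0 in replicate 2, and *ABCC12* was listed at 0 in both. *ABCC5*, a pump for cyclic nucleotides, had 19.0 and 21.8. *ABCC3*, a basolateral pump for glucuronides and bile salts, had 14.5 and 18.0, and *ABCC1*, a pump for glutathione conjugates, had 16.9 and 15.3. The ranges of *ABCC3* and *ABCC1* overlapped between the libraries, so their order is not settled here. *ABCC10* had 4.76 and 5.13.

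ABCB transporters of organelle membranes also passed a mean of 1. *ABCB6*, a porphyrin transporter of mitochondria and other organelles, had 15.7 and 16.1 (15.9 ± 0.283). The mitochondrial transporter *ABCB10* had 11.0 and 12.7, and *ABCB8*, also of mitochondria, had 9.97 and 9.69. *ABCB9*, a peptide transporter of lysosomes, had 5.06 and 4.58. With only the largest transcript of each gene, the mean was 4.57 for *ABCB6*, 11.5 for *ABCB10* and 3.87 for *ABCB8*. For *ABCB9* it was then 0.867, below 1.

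Members known mainly from liver were low. Of 9, *ABCC6* alone reached a mean of 1, with 1.64 and 2.28, though with only its largest transcript the mean was 0.772. It is uncertain, because the near-identical pseudogene copies *ABCC6P1* (1.52 and 1.50) and *ABCC6P2* (1.39 and 0.784) may share its reads. *SLCO1B1* and *SLCO1B3*, the liver uptake carriers of statins, and *SLC22A9*, *SLC22A10* and *SLC22A25* were listed at 0. *ABCB4* had 0.0991 and 0.0999, and *ABCB11*, the bile salt pump, 0.0114 in replicate 1 and a listing at 0 in replicate 2. Of the sulfonylurea receptors, *ABCC9* had 1.22 and 1.51, and *ABCC8* was listed at 0. The sterol transporters *ABCG1*, *ABCG5* and *ABCG8* were listed at 0, and *ABCG4* had 0.0200 in replicate 1 and was listed at 0 in replicate 2.

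Among the remaining SLC22 genes, *SLC22A17*, known as a receptor for lipocalin-2, had 6.47 and 5.87, *SLC22A18* had 5.19 and 3.99, and *SLC22A15* had 2.92 and 2.77. *SLC22A31* had 0.479 and 0.616 and *SLC22A23* 0.146 and 0.294, and *SLC22A16* was listed at 0. The 10 members outside the role lists summed to 0.111 and 0.0794, with none at a mean of 1 and 6 listed at 0 in both. The strand setting of the RNA-seq quantification is not given in the sources used here, so members that overlap transcribed genes on the other strand are uncertain. These include *SLC22A4*, which overlaps *P4HA2* (55.6 and 58.2), *ABCB9*, which overlaps *ARL6IP4* (42.1 and 39.8), and *ABCC10*, which overlaps *DLK2* (6.77 and 4.75). *ABCB6* overlaps *ATG9A* (22.1 and 21.9) on the same strand.

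The libraries were close for the 21 members with a mean of at least 1. Their median absolute log2 difference in FPKM + 1 was 0.13, and over all genes with such a mean it was 0.13. By the ratio of FPKM with nothing added, 4 of the 21 differed by more than 1.2-fold (*ABCC6*, *SLC22A18*, *ABCC9* and *ABCC3*), a fold chosen after the values were seen, against 27.8% of all such genes. When the 21 were put in order of mean level, 9 of the 20 neighbouring pairs had overlapping ranges.

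Many members lie beside relatives. On GRCh37, 32 of the 63 fell into 12 neighbourhoods in which a member lay within 500 kb of the next of its superfamily. Of these 32, 5 had a mean FPKM of at least 1 and 17 were listed at 0 in both libraries, while of the 31 members that stand alone 16 had such a mean and 6 were listed at 0. Position and family cannot be told apart in these counts. The largest neighbourhoods hold SLC22 and SLCO genes, of which 22.9% reached a mean of 1, against 50% of the ABC genes. Neighbourhoods were not counted over all genes. The largest neighbourhood, on chromosome 11 from 62703857 to 63177766, holds *SLC22A6*, *SLC22A8*, *SLC22A24*, *SLC22A25*, *SLC22A10* and *SLC22A9*, all listed at 0. The SLCO1 neighbourhood on chromosome 12, from 20848266 to 21572528, holds 5 genes, of which 4 were listed at 0 and *SLCO1A2* had 0.00707 in replicate 1. Levels also parted within a neighbourhood. On chromosome 7, *ABCB1* had 11.7 and 10.0 while the adjacent *ABCB4* had 0.0991 and 0.0999.

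**Figure D3:**
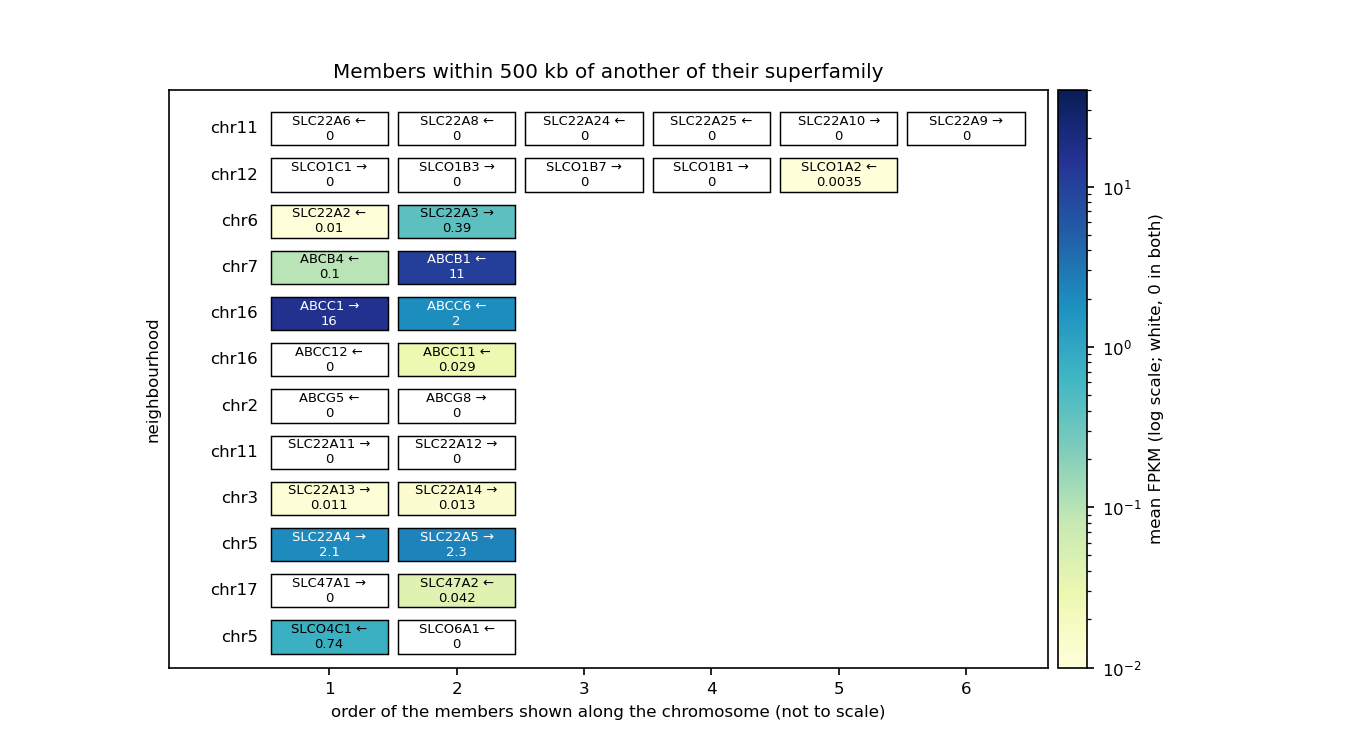
Members reported here that lie within 500 kb of a relative, drawn in their order along the chromosome with arrows for strand and with the mean FPKM written in each box and shown by colour on a log scale. Both chromosome 11 rows are white (0 in both libraries), and members with a mean of at least 1 stand in 3 of the 12 rows.

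In some genes the split between transcripts moved between the libraries. In each library the largest transcript was compared with the gene sum. It held a median of 59.8% of the FPKM of a gene over the 21 members, from 18.0% for *ABCB9* to 100% for *ABCC9*, and in 9 of the 21 it held less than 50%. For *SLCO4A1* a transcript annotated for nonsense-mediated decay held 28.9% of the FPKM in replicate 1 and 50.2% in replicate 2, and protein-coding transcripts held 48.5% and 20.9%. For *ABCC3* protein-coding transcripts held 26.5% and 49.5%. For *ABCB1* they held 56.8% and 85.7%. The largest shift was in *SLCO3A1*, from 67.2% to 25.9%. *SLCO2A1* (90.1% and 86.5%), *ABCB8* (68.8% and 68.3%) and *ABCB10* (95.1% and 98.4%) were steadier. Over the 21, this share moved by a median of 5.8 points, and by more than 10 points, a limit chosen after the values were seen, in 7. The shares differed more between the libraries than the gene sums did for *SLCO4A1*, *ABCC3* and *ABCB1*. In *ABCC4* and *SLC22A17* most of the FPKM, 87.5% and 87.5% and 72.5% and 65.5%, lay in transcripts of GENCODE 27 whose identifiers were not matched in GENCODE 44, so their class is not given. Such transcripts also held 37.37% and 19.45% in *SLC22A18*, which is among the 7. Its protein-coding share was 37.2% and 61.6%, and the size of that shift is uncertain.

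**Figure D4:**
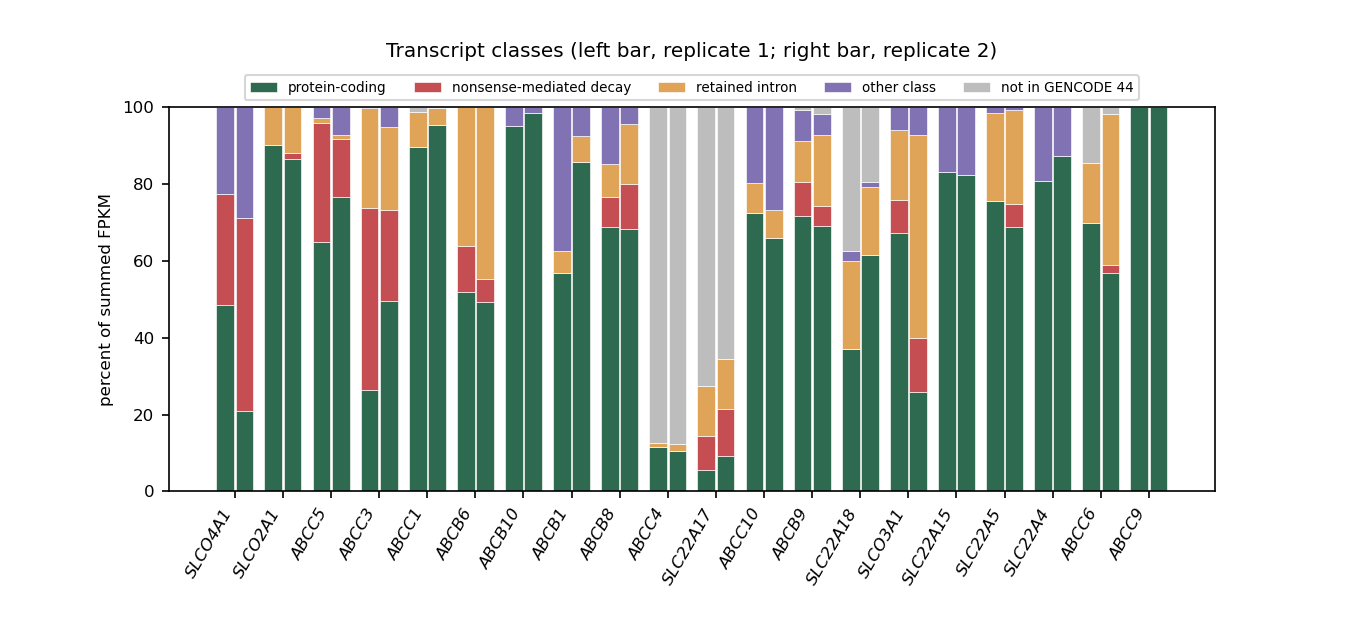
Share of each gene's summed FPKM by transcript class, in percent, for the members reported here with a mean FPKM of at least 1, in order of level, with replicate 1 as the left bar and replicate 2 as the right. The protein-coding share of *SLCO4A1* is 48.5% and 20.9%, and that of *ABCC9* is 100% in both.

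HIF1α peaks lay within 1 kb of a start site of 4 members in replicate 1 and 4 in replicate 2. *ABCB6* and *ABCB9* had peaks in both replicates, *ABCB10* and *ABCC1* in replicate 1 and *ABCC10* and *SLC22A17* in replicate 2. The mean level of all 6 genes was 1 FPKM or more, and none of the 23 members listed at 0 had such a peak in either list, beside 0.314% in replicate 1, 3.51% in replicate 2 and 0.0785% in both for protein-coding genes listed at 0. Beside these counts, promoter peaks lay at 2.36% of all annotated genes in replicate 1, 8.97% in replicate 2 and 0.706% in both, and correspondingly at 5.46%, 13.9% and 1.75% of protein-coding genes. Over the genes at a mean level of 1 FPKM or more the shares were 8.14%, 20.8% and 2.68%. The 4, 4 and 2 of 21 members at that level are few genes, and no test was made. Of 10 established HIF1α targets, 7 carried a peak there in each list and 6 in both, and the 10 summed to 2162 and 2074 FPKM, each above a mean of 1.

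The peaks at *ABCB6* and *ABCB9* in the 2 replicates did not overlap each other. The replicate 1 peak at *ABCB6* (chr2:220083338-220083828, GRCh37, minus strand gene) was centred 97 bp downstream of a start site, in a UTR exon of *ABCB6*. The replicate 2 peak (chr2:220084379-220085089) was centred 1018 bp upstream of the nearest *ABCB6* start site, in a UTR exon of *ATG9A*. The replicate 1 peak at *ABCB9* (chr12:123459698-123459936) was centred 65 bp upstream of an *ABCB9* start site, in an *ABCB9* intron. It also lay in a coding exon of *OGFOD2*, whose start site is 18 bp from the centre, so the peak cannot be assigned to either gene. The replicate 2 peak (chr12:123466127-123466420) was centred 77 bp upstream of an *ABCB9* start site. Its centre lay in a coding exon of *ARL6IP4*, 227 bp from a start site of that gene.

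The core of the hypoxia response element, ACGTG or GCGTG read on either strand, was searched in each peak. CACGTG holds ACGTG on both strands and counts as 2 matches. All 4 replicate 1 peaks at members held a core, against 95.9% of 1075 replicate 1 peaks at promoters. Of the 5 replicate 2 peaks, 3 held one, against 54.9% of 6075. The replicate 1 peak at *ABCB6* held 8 matches and the nearest lay 5 bp from its centre. In the replicate 2 peak at *ABCB6*, 711 bp wide, the nearest match lay 329 bp from the centre. A core lay within 100 bp of the centre in all 4 replicate 1 peaks and in 2 of the 5 replicate 2 peaks. Over all peaks at promoters these shares were 92.4% and 30.7%. The stretches below, from GRCh37 and on the strand of the gene, are shown because they hold the match nearest the centre of each of the 7 peaks with a core, with matches in capitals. They are a description of the letters and show no binding site.
ABCC1, replicate 1, chr16:16043623-16043727, plus strand: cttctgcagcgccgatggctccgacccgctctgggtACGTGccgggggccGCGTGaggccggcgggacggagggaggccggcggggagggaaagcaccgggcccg
ABCB10, replicate 1, chr1:229694802-229694906, minus strand: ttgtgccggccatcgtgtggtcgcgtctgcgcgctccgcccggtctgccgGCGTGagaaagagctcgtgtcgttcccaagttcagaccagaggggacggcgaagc
ABCB9, replicate 1, chr12:123459813-123459917, minus strand: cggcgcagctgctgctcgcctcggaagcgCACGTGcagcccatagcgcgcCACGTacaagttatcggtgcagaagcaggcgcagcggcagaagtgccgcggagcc
ABCB6, replicate 1, chr2:220083564-220083592, minus strand: cgtggcggcggcGCGTGcgctaggggagt
ABCB6, replicate 2, chr2:220085049-220085077, minus strand: ttccctggcccCACGTGtgtggtgtttgt
ABCC10, replicate 2, chr6:43413495-43413599, plus strand: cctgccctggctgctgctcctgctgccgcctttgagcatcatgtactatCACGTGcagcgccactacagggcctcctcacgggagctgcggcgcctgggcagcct
SLC22A17, replicate 2, chr14:23821349-23821453, minus strand: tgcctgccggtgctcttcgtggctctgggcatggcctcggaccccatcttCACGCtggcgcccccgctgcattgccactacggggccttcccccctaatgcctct

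The *ABCC1* peak (chr16:16043550-16043868) was centred 236 bp downstream of a start site, in an intron, and its nearest match lay 34 bp from the centre. The *ABCB10* peak (chr1:229694588-229695035) was centred 357 bp upstream of a start site, between genes. The *ABCC10* peak (chr6:43413441-43413733) was centred in a coding exon, 749 bp downstream of the start site of a transcript annotated as a retained intron. *SLC22A17* had 2 replicate 2 peaks, chr14:23821190-23821457 in a coding exon and chr14:23821844-23822080 in a UTR exon. All 5 replicate 2 peaks at members were centred in an exon of some gene. The same share was not taken over all replicate 2 peaks, so this cannot be called particular to the members.

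**Figure D5:**
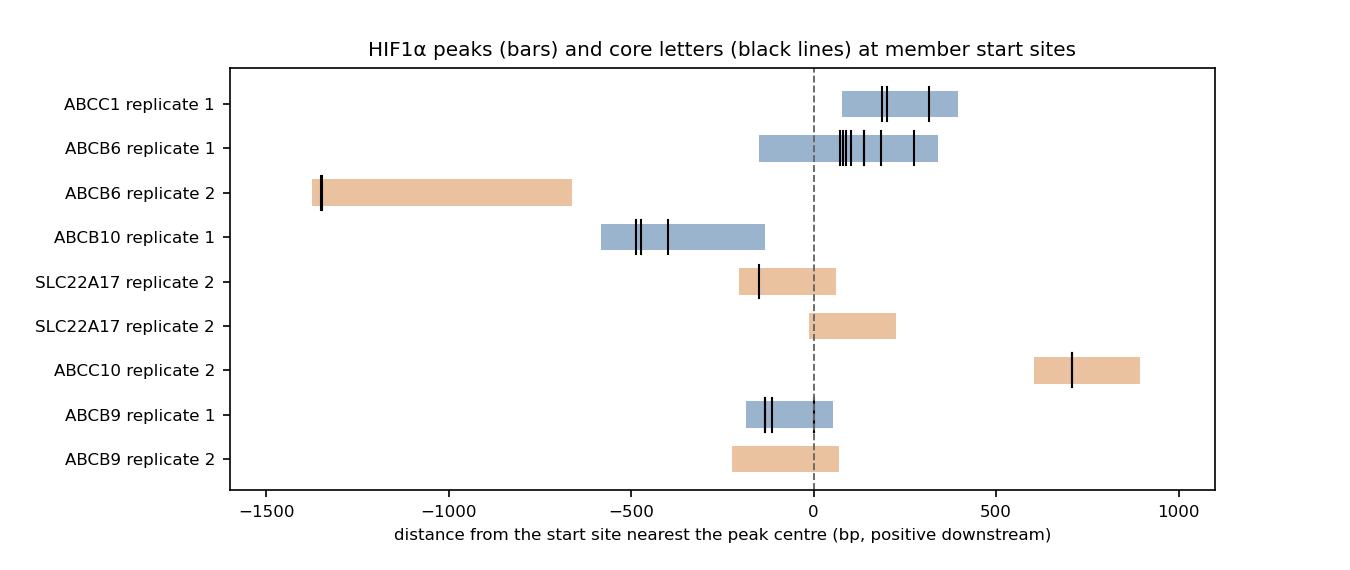
HIF1α peaks (bars, blue for replicate 1 and orange for replicate 2) at member start sites, with core matches as black lines, by distance in bp from the start site nearest the peak centre. The *ABCB6* replicate 1 bar spans the start site and holds 8 matches, and the *ABCB6* replicate 2 bar lies upstream with 2 overlapping matches drawn as 1 line.

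Within 10 kb of a start site there was a peak for 5 members (7.94%) in replicate 1 and 9 (14.3%) in replicate 2, against 8.08% and 37.4% of protein-coding genes. Among those with a mean of at least 1 it was 5 of 21 members (23.8%) in each replicate, against 11.8% and 50.3%. The member share was thus above that of protein-coding genes in replicate 1 and below it in replicate 2. These are few genes, and no test was made. Of the members listed at 0, *ABCC8* and *SLC22A16* had a replicate 2 peak within 10 kb and in an intron. The share of such members with a peak within 10 kb was 0% in replicate 1 and 8.70% in replicate 2. Among protein-coding genes listed at 0 it was 1.10% and 12.3%. The median distance from a start site to the nearest replicate 1 peak was 340.1 kb for members and 359.3 kb for protein-coding genes, and 95.2 kb and 21.7 kb for the longer replicate 2 list. The nearest peaks in replicates 1 and 2 lay 72.8 and 130.1 kb from *SLCO4A1*, 281.3 and 31.7 kb from *SLCO2A1*, 7371 and 310 kb from *ABCB1*, and 361.4 and 30.4 kb from *ABCG2*. Peaks that overlapped the gene were found in 3 members in replicate 1 (4.76%, against 5.998% of protein-coding genes) and 10 in replicate 2 (15.9%, against 38.3% of protein-coding genes), and of these 20 replicate 2 peaks 13 were centred in an exon and 1, at the edge of *ABCB9*, outside the gene. *SLC22A23*, with 4 such peaks, and *SLC22A3* and *SLCO2B1*, with 3 each, were below a mean of 1, while *SLC22A17*, also with 3, had 6.47 and 5.87 FPKM. The share centred in an exon was not taken over all replicate 2 peaks, so the 13 of 20 has no background here.

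In the 300 bases from 250 before to 50 after the 5′-most start site, a core was present in 21 of 63 members (33.3%) and in 53.5% of protein-coding genes. It was present in 7 of the 21 members with a mean of at least 1 (33.3%), in 3 of the 19 between and in 11 of the 23 listed at 0 (47.8%). In protein-coding genes the shares ran the other way, 61.4% with such a mean and 37.2% listed at 0. No test was made on these few members. Only 1 start site of each gene was searched, so a core at another start site is missed. *ABCC1* and *ABCB9* held no core here, while their replicate 1 peaks at other start sites held 3 and 4 matches. Median GC content was 64.3% in members with such a mean and 51.3% in those listed at 0, against 63.3% and 50.7% in protein-coding genes of the same kinds.

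The proximal tubule markers were present in part. Of 14 proximal tubule markers, 7 had a mean FPKM of at least 1, beside 59.7% of protein-coding genes. The list sum was 299.6 and 291.0, with *PAX8* the most abundant at 120.8 and 114.1. *GGT1* had 62.3 and 58.5, and *SLC5A2*, the glucose carrier, 2.59 and 1.70. The endocytic receptor *LRP2* was listed at 0, and *CUBN* had 0.0716 and 0.0469, *AQP1* 0.0914 and 0.0593, and *SLC34A1* 0.0372 in replicate 1 and a listing at 0 in replicate 2. Of 6 epithelial markers, 5 passed a mean of 1, and *CDH1* had 0.211 and 0.379. No marker of later nephron segments (of 7), endothelium (of 3) or hepatocytes (of 3) reached a mean of 1, although *SCNN1A*, of the later segments, came close at 0.709 and 1.22. One of 4 podocyte markers did, *PODXL* at 5.36 and 5.49, and one of 3 leukocyte markers, *CD68* at 33.6 and 31.5, while *PTPRC* and *CD3E* were listed at 0.

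Partners of the transporters were mixed. The scaffold genes *PDZK1* (17.7 and 13.8), *SLC9A3R1* (19.6 and 18.4) and *SLC9A3R2* (12.8 and 12.2) were all present. Of 15 transcription factors known for these genes, 10 reached a mean of 1, beside 59.7% of protein-coding genes. *HNF4A* was listed at 0 in both libraries. *HIF1A* had 110.3 and 114.0, and *EPAS1*, which encodes HIF2α, 27.3 and 42.4. The part of these factors in the levels of the carriers was not tested. Of 20 other organic solute carriers, 4 reached a mean of 1, led by the nucleoside carrier *SLC29A1* at 37.2 and 35.8, and 7 were listed at 0. Of 11 genes of glutathione and conjugation, 6 did, led by *GSTP1* at 552.5 and 520.2, with *UGT2B7* at 19.3 and 20.0.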

How the data were processed

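By the study's methods and the submitters' processing notes, the authors trimmed ChIP-seq reads, aligned them to hg19 with Bowtie2 and called peaks with MACS2 in each replicate; the deposited lists hold positions only. The authors mapped RNA-seq reads with HISAT2 and ran StringTie 1.3.3 on GENCODE 27, and the deposited tables give each transcript its TPM, FPKM and coverage. The methods name hg19, but these tables have GRCh38 coordinates, so genes were joined by Ensembl identifier to GENCODE 44 on GRCh37 and no position was converted.

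FPKM was summed over transcripts. The tables hold no counts, so no count model was used, and with 1 treatment no test between conditions was possible. Depth is coverage multiplied by transcript length. A promoter peak overlapped by at least 1 bp the window of 1 kb on either side of any start site. Members and lists were chosen with earlier results of these data known. The genes named in the text are members with a mean FPKM of at least 1, a promoter peak, a relative nearby or a place in a role list, and genes of the other lists. The peak join and the core search were tested on simulated data, and 7 replicate 2 peaks with no usable sequence were left out of the core shares. The alternatives tried covered units, minimum levels, transcripts, windows, start sites and left-out replicates. Python 3.11.15, numpy 2.4.6, pandas 2.3.3, pysam 0.24.0 and matplotlib 3.10.9 were used. Levels of a few members and factors are not reported singly here and are left out of the figures of single genes, while counts and sums include them.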

Additional observations from a re-analysis of the deposited data

How the results depend on the processing

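No paired analysis was possible because ChIP-seq and RNA-seq libraries share replicate numbers but no test compares them. The count of members with a mean FPKM of at least 1 was 21 and ran from 19 to 25 with TPM, a minimum of 0.5, the largest transcript or either library alone, and was 12 with a minimum of 5. In alternatives chosen after seeing the data, it stayed 21 without transcripts of retained intron or nonsense-mediated decay, and 21 with members taken by the first symbol field alone, a choice that lowered the members listed at 0 from 23 to 3. With all 63 members and either library left out, those listed at 0 numbered 25 to 28. The summed level was 219.5 in FPKM, 607.1 in TPM, which is another scale, and 123.1 with the largest transcript. The median replicate difference was 0.13, with 0.14 for a pseudocount of 0.1, 0.18 for the largest transcript and 0.11 with no minimum; 1 pair of libraries gives no spread for it.

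Replicate 2 promoter peak members numbered 4, with 2 at 500 bp, 7 at 3 kb and 9 at 10 kb. Members with peaks in both numbered 2, with 1 at 500 bp, 3 at 3 kb and 3 at 10 kb, 1 with the 5′-most start site and 1 by peak centre. With either ChIP-seq replicate left out only the count of a single list remains, 4 in each, which is not a count of peaks in both. Replicate 1 counts ran from 3 to 5, and cores from 5 to 7 of 9 peaks. Of the 21 gene levels with a mean of at least 1, 19 fell by more than 1 SD with the largest transcript, which is a part of each sum, while TPM is FPKM multiplied by 1 constant per library (2.758 and 2.774) and only changes the scale; leaving out 1 of 2 libraries cannot move a mean by 1 SD.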
